A study of Mus musculus with 12 samples.

Results

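The helix-loop-helix factors described here are the 4 ID genes (Id1, Id2, Id3 and Id4), the E-protein genes Tcf3, Tcf4 and Tcf12, and the Twist genes Twist1 and Twist2. They were taken by symbol from a gene matrix of cultured mouse colon fibroblasts, giving 9 of 23106 genes, and all 9 were among the 12676 genes that entered the test, for which the mean over the 12 libraries had to reach 10 normalised reads. The fibroblasts came from the colon of C57BL/6 mice, 12 weeks old by the labels. There were 3 groups of 4 libraries: wild type cells with the guide labelled sgScr (WT sgScr), Prkcz-/- cells with the same guide (Prkcz-/- sgScr), and Prkcz-/- cells with the guide labelled sgSox2 (Prkcz-/- sgSox2). Every group thus carries a guide, and wild type cells with the Sox2 guide are not among the libraries used here. The design describes the libraries of a group as biological replicates, and the labels do not tell whether these were separate mice or separate cultures, so the p-values measure only the spread between the libraries. Cells were untreated and were harvested 24 h after plating. The comparison of WT sgScr with Prkcz-/- sgScr addresses the Prkcz genotype, Prkcz being the gene of protein kinase C zeta, and the comparison of the 2 guides addresses, within Prkcz-/- cells, a guide named for Sox2, a pluripotency and neural-lineage transcription factor.

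Helix-loop-helix factors act in pairs. E proteins bind the DNA letters CANNTG, the E-box, as homodimers or with tissue-restricted partners such as the Twist factors, while ID proteins have the dimerisation domain but no basic DNA-binding region, so that an ID protein holds an E protein off DNA. ID genes are classical targets of bone morphogenetic protein (BMP) signalling through SMAD proteins, and Twist factors are known for their roles in mesenchyme and in the transition from epithelial to mesenchymal form.

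Libraries held 2668455 to 5201368 reads, and each was scaled by the authors to 10000000, so that a value is the number of reads per 10000000, called normalised reads here. They are 3' tag libraries: 1 tag comes from the end of a transcript, and a value is not divided by length. The libraries labelled Prkcz-/- held 32 (sgScr) and 54 (sgSox2) reads of Prkcz in all and the WT libraries held 0, an order that is the reverse of the genotype labels. A 3' tag outside a deleted stretch does not check a knockout, which bears on the reads in the Prkcz-/- libraries and not on the 0 reads in WT. The cause of this order was not tested. The genotypes are taken from the labels. Sox2 stood at 1347 ± 76.4 normalised reads in Prkcz-/- sgScr (SD, n = 4), at 2 reads in all of WT sgScr and at 0 reads in Prkcz-/- sgSox2. Replicate 1 of Prkcz-/- sgSox2 stood apart from its group. Its pairs with the other libraries of the group had a chi-square per degree of freedom of 27.2 to 30.7, against 1.27 to 5.27 for the other 15 pairs within groups, and mitochondrial genes took 4.29% of its reads against 9.39% to 11.6% in the other libraries. Member calls that change without it are given with and without it. Group means, SDs and shares include it unless stated otherwise.

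The promoter windows of Id2 and Id4 are shown because these members changed in all 3 comparisons and their windows hold GGCGCC, a GC-rich motif described for SMAD proteins of the BMP pathway. RefSeq windows of 250 bases before the start (GRCm38.p6) were at hand for 7 of the 9 members, 9 windows in all, and those of Id1 and Tcf4 were not analysed here. Only stretches outside annotated exons are printed, 5′ to 3′ on the gene's strand: for Id2 chr12:25096254-25096342, minus strand, and for Id4 chr13:48260866-48261115, plus strand. Capitals mark the E-box (CANNTG) and GGCGCC.
Id2: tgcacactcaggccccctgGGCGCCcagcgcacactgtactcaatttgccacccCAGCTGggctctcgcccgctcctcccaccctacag
Id4: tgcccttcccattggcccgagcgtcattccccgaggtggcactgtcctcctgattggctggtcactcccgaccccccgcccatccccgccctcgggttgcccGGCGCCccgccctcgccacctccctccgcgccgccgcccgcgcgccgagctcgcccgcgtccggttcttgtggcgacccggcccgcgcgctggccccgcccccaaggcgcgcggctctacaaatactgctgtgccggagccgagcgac
Counting bases back from -1 just before the RefSeq start, GGCGCC begins at -231 in Id2 and the E-box, CAGCTG, at -196, and both lie between exons of a longer annotated transcript. The Id4 window holds GGCGCC at -148 and no E-box. GGCGCC was found in 2 of the 9 windows of members and in 9.59% of the 32851 RefSeq windows, with all 250 bases of each window searched in both cases, exons included, and the E-box in 4 of the 9 windows (1 of Id2, 1 of Tcf3 and 2 of Tcf12) against 66.22% of all windows. Both strands were searched, and the motifs did not overlap in these windows. A match is a run of letters, and binding was not measured here.

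All 4 ID genes were highest in Prkcz-/- sgScr, intermediate in WT sgScr and lowest in Prkcz-/- sgSox2, and each of the 3 differences passed the test for each of them. Id3, an inhibitor of E proteins on mouse chromosome 4 (136143497 to 136145755, GRCm38), had the largest levels of the 4 genes in every group. Its normalised reads were 1533, 1599.7, 1592 and 1561 in WT sgScr, 7247, 6266, 6706 and 5621 in Prkcz-/- sgScr, and 1238, 1171, 956 and 936 in Prkcz-/- sgSox2. No library of 1 group reached the values of another. In bulk libraries such as these, fewer cells of a type and less RNA per cell cannot be told apart. Id3 was 4.11 times higher in Prkcz-/- sgScr than in WT sgScr by the ratio of means, a log2 change of 2.03 ± 0.10 (SE, limma, Benjamini-Hochberg adjusted p = 2.4e-11). With the Sox2 guide it was 6.01 times lower than with sgScr (log2 change -2.59 ± 0.10, limma adjusted p = 1.8e-12). It was also below wild type, by a smaller step (log2 change -0.56 ± 0.10, limma adjusted p = 1.9e-04).

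Id2, the ID gene on chromosome 12 (25093799 to 25097140) whose promoter stretch is printed above, stood at 1519.5, 1481, 1544 and 1511 in WT sgScr. The Prkcz-/- sgScr libraries read 4411, 4029.7, 4021 and 4278, and the Prkcz-/- sgSox2 libraries 825, 623, 716 and 741. The 3 groups were again fully separate, and WT sgScr was the tightest of them, with 1513.9 ± 26.3 normalised reads (SD, n = 4). The log2 changes were 1.47 ± 0.08 for Prkcz-/- sgScr against WT sgScr (limma adjusted p = 1.6e-10), -2.53 ± 0.08 for the Sox2 guide against sgScr in Prkcz-/- cells (3.2e-13) and -1.07 ± 0.08 for Prkcz-/- sgSox2 against WT sgScr (2.4e-08). By means, Id2 was 2.76 times higher in the first of these and 5.76 times lower in the next.

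Id1, on chromosome 2 (152736251 to 152737410), is a close relative of Id3 and likewise a classical BMP target. Its libraries read 389.6, 365, 494 and 450.1 in WT sgScr, 724, 601, 632 and 644 in Prkcz-/- sgScr, and 154, 158, 119.9 and 148 in Prkcz-/- sgSox2. The rise in Prkcz-/- sgScr was the smallest of the 4 ID genes, 1.53 times by means (log2 change 0.62 ± 0.13, limma adjusted p = 3.7e-04). Against WT sgScr, the fall in Prkcz-/- sgSox2 was 2.93-fold by means (log2 change -1.54 ± 0.13, limma adjusted p = 4e-08), and against Prkcz-/- sgScr 4.48-fold (-2.16 ± 0.13, 3.3e-10).

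Id4, the ID gene on chromosome 13 (48261228 to 48266026), was scarce. Its 4 libraries per group held 23 reads in all in WT sgScr, 129 in Prkcz-/- sgScr and 8 in Prkcz-/- sgSox2. In normalised reads these were 9.74, 14.4, 32.9 and 16.4, then 118, 102, 62.6 and 51.8, then 3.85, 8.9, 7.49 and 0. The groups kept apart in the same order as those of the other ID genes, with wider spread. On the scale of log2(value + 1) Id4 differed by 2.18 ± 0.60 (limma adjusted p = 0.0044), -4.16 ± 0.60 (1.6e-05) and -1.98 ± 0.60 (0.011) in the 3 comparisons, in the order used above. These sizes rest on few reads: with 5 added in place of 1 the last 2 became -3.17 and -1.23, and without replicate 4 of Prkcz-/- sgSox2, the library with 0 reads, -3.43 and -1.26, all still past the threshold.

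The summed levels of smooth muscle and pericyte markers took the same order of groups as the ID genes. Not every smooth muscle marker did, and no single pericyte marker did. The summed level of 6 smooth muscle markers, of which 4 were tested, was 137 to 144 normalised reads in WT sgScr, 899.6 to 933 in Prkcz-/- sgScr and 12.3 to 20.03 in Prkcz-/- sgSox2, with Myh11 at 0 in WT sgScr and Prkcz-/- sgSox2 and Des at 0 in the latter. Lmod1 (10, 963 and 2 reads per group) and Synpo2 (20, 232 and 6) followed the sum, while Actg2 had most reads in WT sgScr (85, 62 and 8). The sum of 5 pericyte markers, of which 3 were tested, was 97.4 to 165, 277 to 309.8 and 37.8 to 61.5, with Kcnj8 and Abcc9 at 0 in all groups. Within it Notch3 had 42, 342 and 82 reads, or means of 34.4, 237 and 49.2 normalised reads, and Rgs5 had 0, 93 and 1 reads. Both thus stood higher in Prkcz-/- sgSox2 than in WT sgScr. Cspg4 had 111 reads in WT sgScr and 0 in both Prkcz-/- groups, and it alone put WT sgScr above Prkcz-/- sgSox2 in the sum. The part of these markers in the ID differences was not tested.

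**Figure D1:**
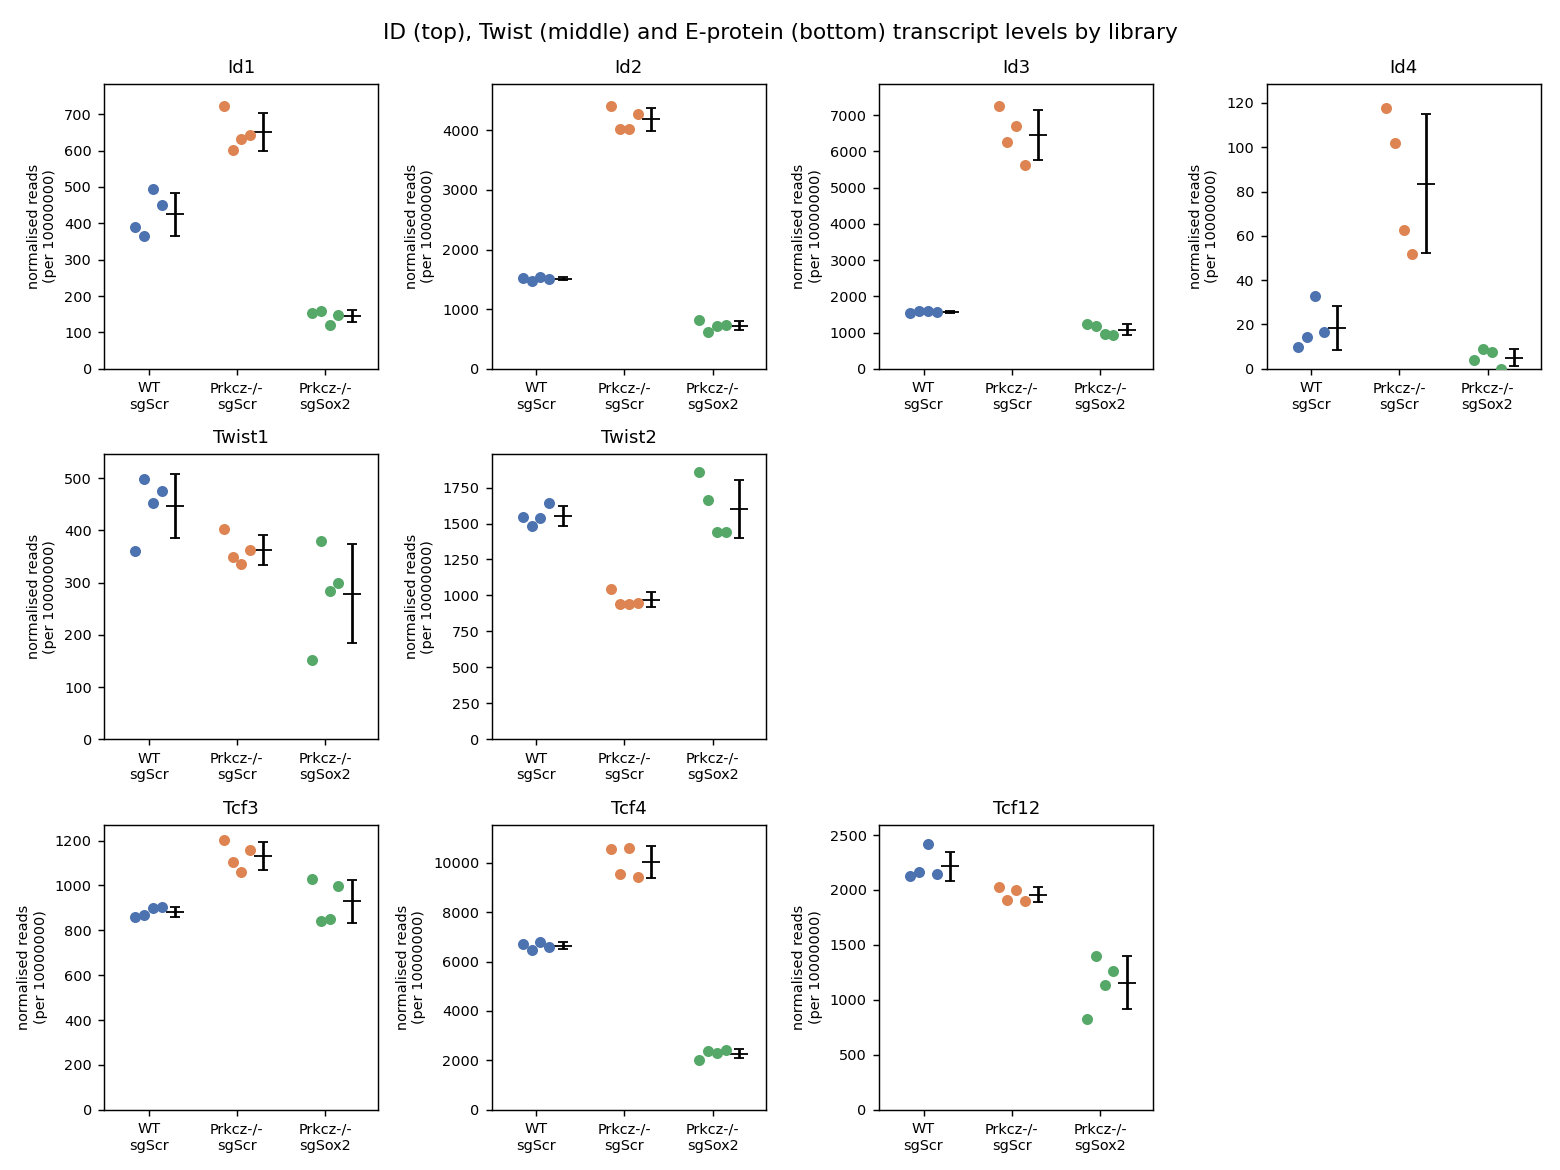
Normalised reads (per 10000000, linear axis from 0) of the 9 genes in each of the 12 libraries, with ID genes in the top row, Twist genes in the middle and E-protein genes at the bottom. Points are libraries, the horizontal bar and whiskers the mean and SD of 4 libraries. The ID genes and Tcf4 step up from WT sgScr to Prkcz-/- sgScr and down below WT sgScr with the Sox2 guide, Twist2 is lowest in Prkcz-/- sgScr, and the Twist1 groups overlap.

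Tcf4, the E protein also called E2-2, was the most abundant member by tags and ranked 143 of the 12676 genes tested by mean level. It followed the order of the ID genes. Its normalised reads were 6705, 6460.1, 6797 and 6607 in WT sgScr, 10559.9, 9529, 10599.6 and 9433 in Prkcz-/- sgScr, and 1999, 2379, 2293 and 2435 in Prkcz-/- sgSox2, with every library of a group apart from those of the others. Tcf4 rose 1.51 times by means in Prkcz-/- sgScr (log2 change 0.59 ± 0.08, limma adjusted p = 4.1e-06). With the Sox2 guide it fell 4.41-fold against sgScr (-2.14 ± 0.08, limma adjusted p = 1e-12), and it was also below wild type (-1.55 ± 0.08, limma adjusted p = 9.5e-11).

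Tcf12, the E protein also called HEB, on chromosome 9 (71842688 to 72111871), was lower with the Sox2 guide than in either other group. Libraries read 2129.9, 2163, 2415 and 2149 in WT sgScr, 2025, 1907, 2003 and 1896 in Prkcz-/- sgScr, and 829, 1399.8, 1139 and 1262 in Prkcz-/- sgSox2. All Prkcz-/- sgSox2 libraries lay below every other library, and the lowest was replicate 1. The log2 change was -0.78 ± 0.12 against Prkcz-/- sgScr (limma adjusted p = 3.2e-05) and -0.96 ± 0.12 against WT sgScr (5.7e-06). Without replicate 1 of Prkcz-/- sgSox2 these changes were -0.63 and -0.81, and both still passed. Between Prkcz-/- sgScr and WT sgScr the groups did not overlap, yet the difference did not pass, at -0.18 ± 0.12 (95% interval -0.43 to 0.08, limma adjusted p = 0.21). That call turned on 1 library outside the comparison: without replicate 1 of Prkcz-/- sgSox2 the same difference had an adjusted p of 0.028, and with only the 2 groups in the fit 0.012.

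Tcf3, on chromosome 10 (80409514 to 80433647), encodes the E12 and E47 proteins and had the smallest called changes of the E-protein genes. It read 857, 867, 901 and 904 in WT sgScr, 1203, 1105, 1058 and 1158 in Prkcz-/- sgScr, and 1029, 843, 851 and 995 in Prkcz-/- sgSox2. Every Prkcz-/- sgScr library was above every other library, and the remaining groups overlapped. Tcf3 was higher in Prkcz-/- sgScr than in WT sgScr by log2 0.36 ± 0.09 (limma adjusted p = 0.0016) and lower with the Sox2 guide by -0.29 ± 0.09 (0.0086). Prkcz-/- sgSox2 and WT sgScr differed by 0.07 ± 0.09 (95% interval -0.11 to 0.25, limma adjusted p = 0.52), a difference whose sign depends on the scaling.

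Twist2, on chromosome 1 (91801461 to 91848028), was the member that ran opposite to the ID genes, lower in Prkcz-/- sgScr than in WT sgScr and near the wild type level in Prkcz-/- sgSox2. Its normalised reads were 1549, 1481, 1541 and 1646 in WT sgScr, 1047, 942, 942 and 948 in Prkcz-/- sgScr, and 1859, 1660.2, 1443 and 1439.9 in Prkcz-/- sgSox2. The Prkcz-/- sgScr libraries lay below all others, and the other groups overlapped. Twist2 fell by 0.68 ± 0.09 on the log2 scale in Prkcz-/- sgScr (limma adjusted p = 4.2e-06) and was higher with the Sox2 guide than with sgScr by 0.72 ± 0.09 (3.1e-06). Against wild type, Prkcz-/- sgSox2 stood at 0.04 ± 0.09 (95% interval -0.15 to 0.22, limma adjusted p = 0.77), again of either sign depending on the scaling. The Twist2 locus holds Gm29101 within an intron on the same strand (mean 73.1 normalised reads) and Gm29100 on the other strand (20.3), and Tcf12 holds 4 small same-strand genes that were tested, so reads may be split between these and the members.

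Twist1, the related factor on chromosome 12 (33957671 to 33959829), passed the test in 1 comparison. Libraries read 360.4, 498, 452 and 476 in WT sgScr, 402, 349.9, 335 and 362 in Prkcz-/- sgScr, and 152, 381, 285 and 299 in Prkcz-/- sgSox2, with overlap between all groups. Only the difference between Prkcz-/- sgSox2 and WT sgScr passed, at -0.74 ± 0.21 (limma adjusted p = 0.0063). Without replicate 1 of Prkcz-/- sgSox2, the library at 152, it was -0.48 and still passed (adjusted p = 0.0058). Prkcz-/- sgScr differed from WT sgScr by -0.29 ± 0.21 (95% interval -0.73 to 0.14, limma adjusted p = 0.22), or 0.038 without that library and 0.029 with only the 2 groups in the fit. The Sox2 guide against sgScr gave -0.45 ± 0.21 (95% interval -0.88 to -0.01, limma adjusted p = 0.07). That adjusted p became 0.24 without replicate 1, with a change of -0.18, and 0.013 without replicate 2, with a change of -0.62.

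**Figure D2:**
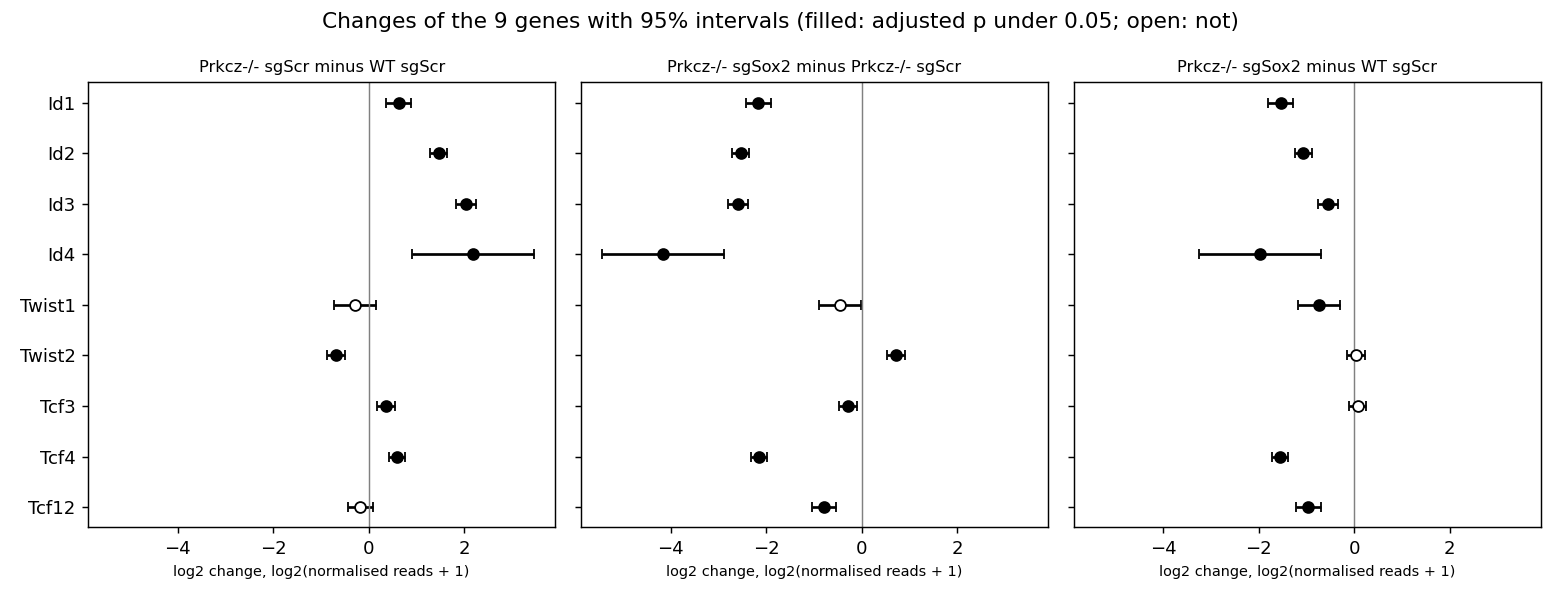
Log2 changes of the 9 genes in the 3 comparisons on the scale of log2(normalised reads + 1), with 95% intervals from limma. Filled points passed an adjusted p of 0.05 and open points did not. The ID genes and Tcf4 lie right of 0 in the first comparison and left of 0 in the other comparisons, and Id4 has the widest intervals.

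Counted over the members, Prkcz-/- sgScr against WT sgScr gave 6 higher (the 4 ID genes, Tcf3 and Tcf4) and 1 lower (Twist2) of 9, and the median change was 0.59 against 0.12 over all genes. Changes were very common in this comparison: 67.0% of the 12676 genes passed, 37.6% higher and 29.4% lower, or 4760 and 3733 genes, a split that turned with quantile scaling (4088 higher and 4447 lower). The Sox2 guide against sgScr within Prkcz-/- gave 1 higher (Twist2) and 7 lower, with a median of -2.14 against -0.01 over all genes, where 60.7% of all genes passed, 30.5% higher and 30.2% lower. Prkcz-/- sgSox2 against WT sgScr gave 7 lower and 0 higher by limma, and also 7 and 0 by edgeR and by DESeq2 on recovered reads. At an unadjusted p under 0.05 limma had the same 7 members. The median change there was -0.96 against 0.08, and 52.0% of all genes passed, 30.1% higher and 22.0% lower, a split that DESeq2 put at 2958 higher and 3230 lower against 3813 and 2783 by limma. The share of members called in either direction is thus to be read against a background in which most genes were called. The comparisons share libraries pairwise, so that a high Prkcz-/- sgScr library enters the first as a rise and the next as a fall.

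Summed over the ID genes, the tags came to 3528 ± 98.3 normalised reads in WT sgScr, 11379 ± 820 in Prkcz-/- sgScr and 1951 ± 193 in Prkcz-/- sgSox2 (SD, n = 4). The E-protein sum of Tcf3, Tcf4 and Tcf12 went from 9738 ± 265 to 13119 ± 701 and 4364 ± 382. ID tags per E-protein tag were 0.362 ± 0.00445, 0.867 ± 0.0314 and 0.452 ± 0.0839. Each WT sgScr library was between 0.356 and 0.366 and each Prkcz-/- sgScr library between 0.836 and 0.907. The Prkcz-/- sgSox2 libraries spread from 0.389 to 0.576, above wild type and below Prkcz-/- sgScr, and the highest of them was replicate 1, without which the mean was 0.411. These sums are given as descriptions with no test, and they count RNA tags, not proteins or dimers.

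**Figure D3:**
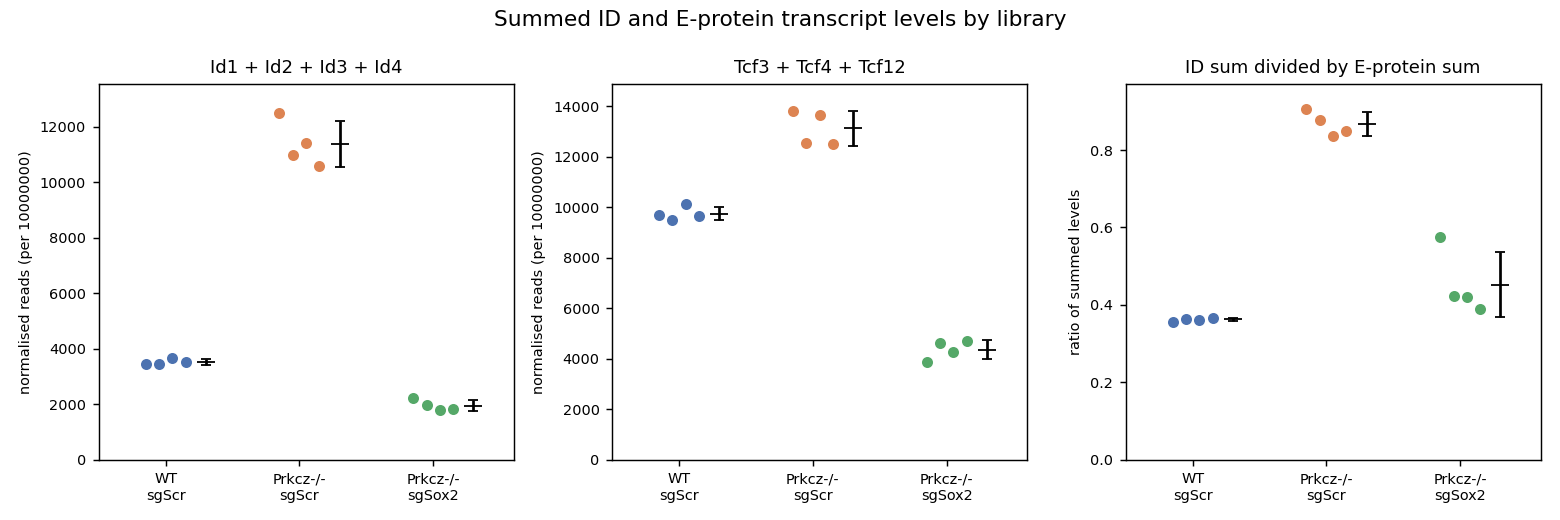
Summed normalised reads of the ID genes (left) and of the E-protein genes (middle), and the ratio of the first sum to the second (right), by library. Points are libraries and the bar and whiskers are the mean and SD of 4 libraries. The ratio lies near 0.362 in WT sgScr, 0.867 in Prkcz-/- sgScr and 0.452 in Prkcz-/- sgSox2.

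The make-up of both sums also differed between groups. Id3 supplied 44.6% ± 1.19 of the ID tags in WT sgScr, 56.7% ± 2.52 in Prkcz-/- sgScr and 54.97% ± 3.65 in Prkcz-/- sgSox2, and Id1 12.0% ± 1.33, 5.72% ± 0.280 and 7.44% ± 0.754 (SD, n = 4). So the 2 Prkcz-/- groups, at opposite ends in level, lay near each other in the share of Id3, and each Prkcz-/- library had a higher share of Id3 than any WT library. Tcf4 supplied 68.2% ± 0.816 of the E-protein tags in WT sgScr and 76.4% ± 0.890 in Prkcz-/- sgScr, but 52.2% ± 0.924 in Prkcz-/- sgSox2. Tcf3 took 9.06% ± 0.232, 8.64% ± 0.645 and 21.5% ± 3.66 of the same sum, and its highest share was 26.7%, in replicate 1 of Prkcz-/- sgSox2. Of the Twist tags, Twist2 supplied 77.7% ± 2.59, 72.8% ± 0.705 and 85.03% ± 5.03 in the same order of groups, with 92.4% in replicate 1 of Prkcz-/- sgSox2.

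**Figure D4:**
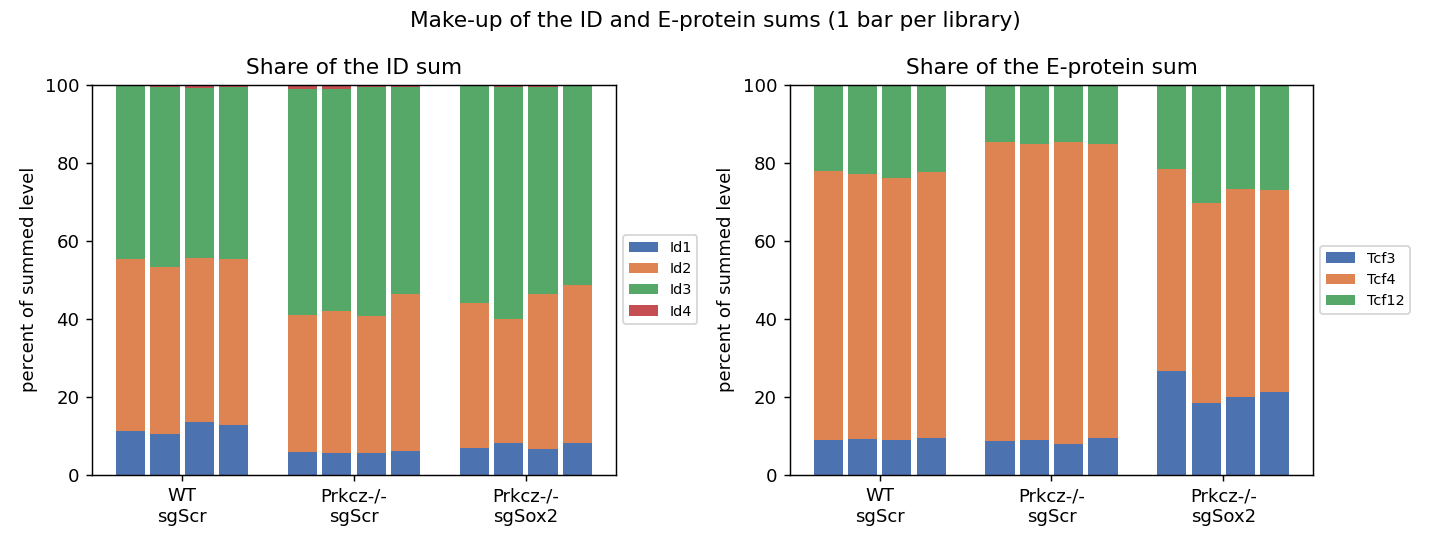
Share of each gene in the summed ID tags (left) and in the summed E-protein tags (right), as percent, with 1 stacked bar per library. Tcf4 takes the largest share of the E-protein tags in every library, and less in the Prkcz-/- sgSox2 libraries, where it stands near 52.2%.

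Among themselves, the members fell into several shapes over the 12 libraries. Likeness was measured as the root mean square difference of log2 profiles, each centred on its own mean, so that 0 is an identical course. Id1 and Tcf4 differed by 0.154, closer than Id2 and Id3 at 0.296 or Twist1 and Tcf12 at 0.219, while Id3 and Twist2 differed by 1.44. Over 9734 genes with a mean of at least 50, the nearest profiles to Id3 were those of Fstl1, a secreted follistatin-like glycoprotein (0.134), Rgl1 (0.169) and Sash1 (0.182). Nearest to Id2 were Nfia, a nuclear factor I transcription factor (0.140), Arhgef25 (0.154) and Serpini1 (0.178). Id1 and Tcf4 had 2 of their 3 nearest genes in common, Rbms3, an RNA-binding protein gene (0.176 from Id1, 0.0938 from Tcf4), and Zbtb20, a zinc finger repressor gene (0.184 and 0.156). Twist2 lay nearest to C1galt1c1 (0.0710), Vdac1 (0.0717) and Hnrnpk (0.0808), Tcf3 to Ndufs1 (0.0602), Tcf12 to Hook3 (0.0986) and Twist1 to Thap12 (0.149). Fstl1 itself ran from 2767 normalised reads in WT sgScr to 9651 in Prkcz-/- sgScr and 1715 in Prkcz-/- sgSox2 (means of 4).

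Class II factors, the tissue-restricted partners of E proteins, were few in these cells: 17 of the 39 listed genes had any read, and 4 were tested. Of these, 2 were higher and 1 lower in Prkcz-/- sgScr than in WT sgScr (median change 1.79), 1 was higher and 2 were lower with the Sox2 guide (median -1.62), and 1 was higher and 1 lower in Prkcz-/- sgSox2 than in WT sgScr (median -0.22). The medians over all genes were 0.12, -0.01 and 0.08, and 67.0%, 60.7% and 52.0% of all genes were called. These backgrounds apply to every gene list counted below as well. Hand2, a factor of heart, limb and gut mesenchyme, passed in all 3 comparisons. It had 5 reads in the 4 WT sgScr libraries, 961 in Prkcz-/- sgScr and 2 in Prkcz-/- sgSox2, or 703, 639, 660.3 and 599 normalised reads in the libraries of the middle group. The difference between the outer groups, of 2 against 5 reads, passed by limma and not by edgeR or DESeq2. Hand2 is overlapped by the antisense gene Hand2os1, so its reads may include some of that gene. Atoh8 went from 23.5 ± 12.1 normalised reads to 257 ± 36.1 and 48.5 ± 15.6 (SD, n = 4), higher in Prkcz-/- sgScr by log2 3.53 ± 0.32 (limma adjusted p = 5.9e-08) and lower with the Sox2 guide by -2.42 ± 0.32 (6.2e-06). Scx, scleraxis, a tendon factor, took the course of Twist2 instead, at 172 ± 23.3, 106 ± 19.1 and 216 ± 33.0, with log2 changes of -0.70 ± 0.17 (limma adjusted p = 0.0019) and 1.03 ± 0.17 (7.4e-05). Scx is overlapped by Bop1 on the other strand.

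Other helix-loop-helix families held genes of both directions, as all genes together did. Over all genes, 37.6% were called higher and 29.4% lower in the first comparison, 30.5% and 30.2% in the next, and 30.1% and 22.0% in the last. In the HES, HEY and BHLHE40 family, 5 of 12 listed genes were tested, of which 2 were higher and 2 lower in Prkcz-/- sgScr than in WT sgScr (median 0.70), 1 was higher and 2 were lower with the Sox2 guide than with sgScr (median -0.55), and 1 was higher and 1 lower in the last comparison (median -0.25). Hes1, a Notch-responsive repressor, stood at 877 ± 83.4, 417 ± 102 and 171 ± 34.7 normalised reads, lower at each step (log2 -1.10 ± 0.17, limma adjusted p = 2.2e-05, then -1.27 ± 0.17, 5.9e-06). Bhlhe40, a clock and hypoxia-linked repressor, read 283 ± 11.4, 65.7 ± 16.8 and 239.7 ± 28.5, lower in Prkcz-/- sgScr by -2.13 ± 0.18 (limma adjusted p = 2.6e-08) and higher with the Sox2 guide by 1.88 ± 0.18 (1.6e-07). Of 31 tested leucine zipper and PAS factors, 14 were higher and 6 lower in Prkcz-/- sgScr (median 0.44), 8 higher and 9 lower with the Sox2 guide (median 0.04), and 10 higher and 7 lower in Prkcz-/- sgSox2 against wild type (median 0.07). Mycn, a MYC family gene, had 106 reads in WT sgScr and 0 in both Prkcz-/- groups.

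Among BMP receptors, SMADs and feedback regulators, the pathway upstream of ID genes, 17 of 20 listed genes were tested, and 6 were higher and 6 lower in Prkcz-/- sgScr (median change -0.08, against 0.12 over all genes). With the Sox2 guide against sgScr 3 were higher and 10 lower (median -0.26 against -0.01), and against wild type again 3 and 10 (median -0.27 against 0.08). Smad6, an inhibitory SMAD that is itself induced by BMP signalling, was highest in Prkcz-/- sgScr, as the ID genes were, and unlike them was not below wild type with the Sox2 guide. Its libraries held 13.0, 18.1, 2.99 and 16.4 normalised reads in WT sgScr, 484, 434, 451 and 353 in Prkcz-/- sgScr and 17.3, 17.8, 11.2 and 19.8 in Prkcz-/- sgSox2, so that the first and last groups overlapped and the middle one stood far above both. The log2 changes were 5.20 ± 0.40 (limma adjusted p = 6.2e-09) and -4.64 ± 0.40 (3.7e-08). Smad9, which encodes the BMP effector SMAD8, rose from 13.0 ± 1.69 to 96.2 ± 17.0 (2.79 ± 0.36, limma adjusted p = 3.1e-06). Eng, the co-receptor endoglin, ran the other way, at 59.1 ± 14.6, 16.6 ± 2.66 and 386 ± 77.2 (-1.75 ± 0.22, limma adjusted p = 2.8e-06, then 4.45 ± 0.22, 5.1e-11), and is overlapped by other genes on both strands. Endothelial markers, of which 1 of 6 was tested, summed to 23.9 to 42.7, 20.3 to 26.2 and 90.4 to 116. That sum, highest where Eng was highest, was mostly Kdr (14, 22 and 158 reads per group), while Cldn5 was at 0 in all groups, Cdh5 had 22 reads in WT sgScr and 0 in both Prkcz-/- groups, and Tek had 1, 7 and 0. Their part in the Eng difference was not tested. Further genes of the BMP receptor list were also lower in Prkcz-/- sgScr than in WT sgScr, unlike the ID genes and Smad6. Rgmb stood at 124 ± 39.7, 13.5 ± 3.35 and 41.8 ± 28.5, and Bmpr1b at 50.7 ± 18.7, 20.7 ± 6.55 and 1.55 ± 1.87. Bambi, a BMP feedback gene, read 71.4, 57.8, 74.8 and 49.3 in WT sgScr and 34.6, 37.9, 43.8 and 9.71 in Prkcz-/- sgScr.

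BMP ligands and antagonists showed the same mixture, with 7 of 14 tested genes higher and 4 lower in Prkcz-/- sgScr (median 0.44), 4 higher and 7 lower with the Sox2 guide against sgScr (median -0.47), and 3 higher and 4 lower against wild type (median 0.14). Nog, the antagonist noggin, stood at 107 ± 22.9, 14.2 ± 4.53 and 142 ± 5.01 normalised reads, lowest where the ID genes were highest. Bmper, a modulator of BMP ligands, did likewise, at 237 ± 50.7, 12.9 ± 5.18 and 173 ± 40.8. Nbl1 and Chrdl1, both antagonists, went the opposite way in Prkcz-/- sgScr, Nbl1 from 158 ± 18.3 to 1129 ± 78.4 and Chrdl1 from 7.54 ± 3.56 to 139.8 ± 9.84. Of the ligands, Bmp2 was lower in Prkcz-/- sgSox2 than in wild type (42.5 ± 14.1 against 391 ± 13.3, log2 -3.23 ± 0.21, limma adjusted p = 2.5e-09) and Bmp4 was higher (564 ± 53.6 against 267 ± 20.6, 1.08 ± 0.11, 3.7e-07). Prkcz-/- sgScr, where the ID genes were highest, lay between these groups for both ligands. Its libraries read 165, 125, 160 and 181 for Bmp2, already below wild type, and 417, 504, 463 and 427 for Bmp4, already above it. How these genes relate to the ID levels was not tested.

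**Figure D5:**
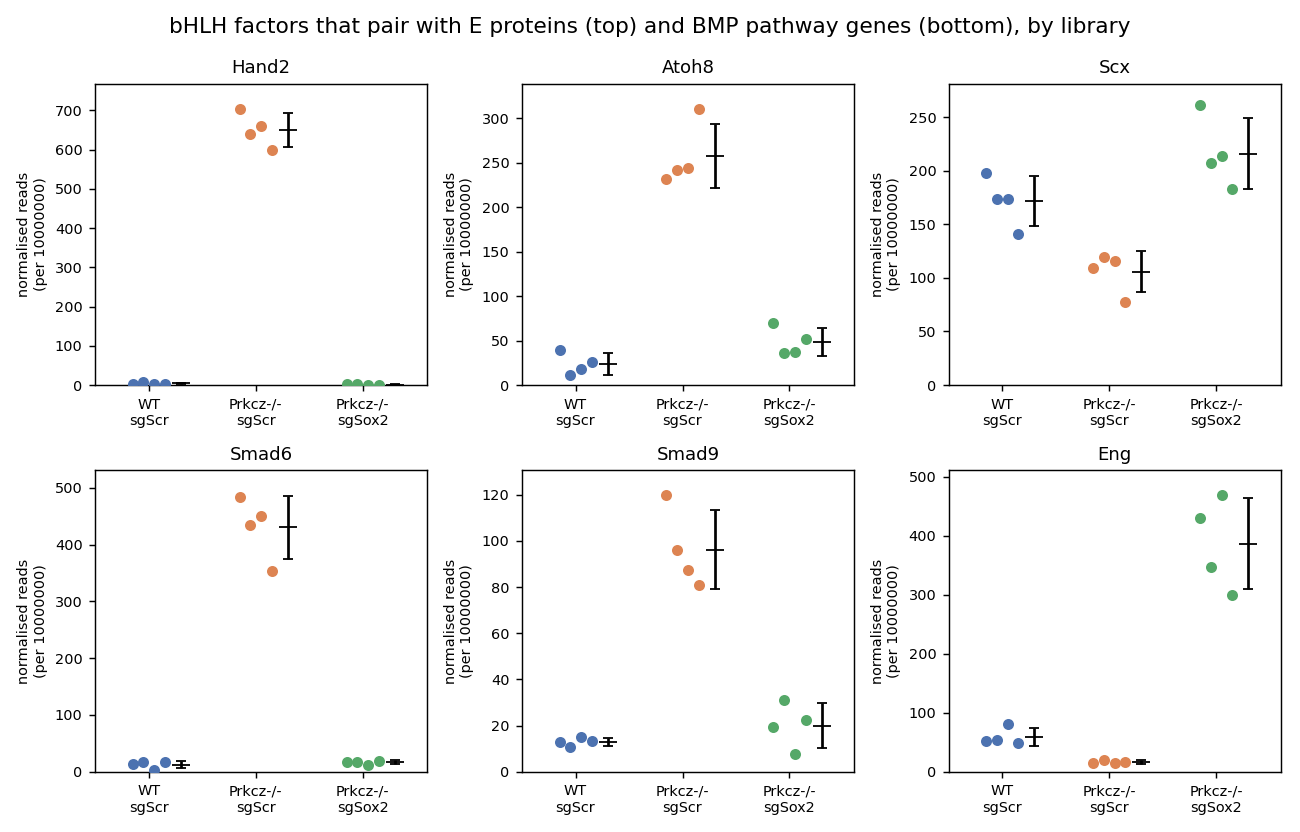
Normalised reads (per 10000000) by library of class II factors Hand2, Atoh8 and Scx (top) and of BMP pathway genes Smad6, Smad9 and Eng (bottom). Points are libraries and the bar and whiskers are the mean and SD of 4 libraries. Hand2, Atoh8, Smad6 and Smad9 are highest in Prkcz-/- sgScr, and Scx and Eng are lowest there.

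In the list of mesenchymal transition factors and cadherins 9 of 11 tested genes were higher and 1 lower in Prkcz-/- sgScr (median 1.10 against 0.12 over all genes). With the Sox2 guide against sgScr 1 was higher and 9 were lower (median -1.11 against -0.01), and against wild type 2 and 5. Prrx1, a homeobox factor of mesenchyme, went from 2249 ± 97.5 normalised reads to 10709.8 ± 537 and 614 ± 107, and Cdh11, a mesenchymal cadherin, from 274 ± 42.1 to 2064 ± 150.4 and 136 ± 57.7. Neither Twist gene was higher in Prkcz-/- sgScr. Of 6 tested cell cycle inhibitors reported as E-protein or ID targets, 3 were higher in Prkcz-/- sgScr and the remaining 3 did not pass (median 0.38, with 67.0% of all genes called). With the Sox2 guide 2 were lower and 4 did not pass (median -0.27, with 60.7% of all genes called), against 4 called in all without replicate 1 of Prkcz-/- sgSox2. Against wild type 1 was higher and 2 were lower (median -0.20, with 52.0% of all genes called). Cdkn1a, which encodes p21, stood at 981 ± 72.2, 7002 ± 269 and 559.6 ± 195 (2.84 ± 0.20, limma adjusted p = 3.2e-09, then -3.73 ± 0.20, 1.5e-10). Replicate 1 of Prkcz-/- sgSox2 was the lowest library, at 275. Cdkn1c, which encodes p57, stood at 386 ± 56.1, 1772 ± 117 and 232 ± 36.0.

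The smooth muscle and pericyte sums given beside the ID genes also share the order of Tcf4 and Cdkn1a, the pericyte sum only through Cspg4, as described there. Mesothelial markers, 2 of 5 tested, ran the other way in Prkcz-/- sgScr, at 1136 to 1296, 10.2 to 16.2 and 296 to 498. That sum was mostly Msln (1358, 1 and 601 reads per group), while Upk3b and Wt1 had 2 and 8 reads in Prkcz-/- sgScr and 0 in the other groups, and Lrrn4 was at 0 in all groups. Fibroblast markers summed to 56262 to 60187, 138773 to 140418 and 61184 to 66837, with 9 of 10 tested and Lum at 0 in Prkcz-/- sgSox2. Col1a1 (means of 5829, 57381 and 11494 normalised reads) and Fn1 (13295, 42618 and 10185) were the largest of them in Prkcz-/- sgScr. Against the sum, Dcn (1686, 86 and 51 reads) and Thy1 (1147, 213 and 1) were highest in WT sgScr. Vim was lowest in Prkcz-/- sgScr (18846, 14820 and 21466 normalised reads), and Col1a2 was highest in Prkcz-/- sgSox2 (13394, 16296 and 17306). Epithelial markers, 2 of 8 tested, summed to 125 to 171 in WT sgScr, 2.92 to 15.6 in Prkcz-/- sgScr and 11.1 to 28.8 in Prkcz-/- sgSox2, mostly from Krt19, with Krt20 at 0 in all groups. Immune markers, 2 of 7 tested, summed to 23.0 to 39.0, 40.7 to 74.4 and 37.5 to 53.8, with Cd3e and Cd79a at 0 in all groups. Its main genes ran opposite to each other, Csf1r with 4, 49 and 11 reads per group and Cd68 with 31, 15 and 62. Ptprc had 2 reads in WT sgScr and 0 in both Prkcz-/- groups. Glial and neuronal markers, with 3 of 6 tested, ran from 250.01 to 361.4, 628 to 787 and 452 to 504. Malat1, a nuclear noncoding RNA, took 0.422% to 0.549% of reads in WT sgScr, 1.36% to 1.502% in Prkcz-/- sgScr and 0.321% to 0.610% in Prkcz-/- sgSox2. The part of cell make-up or RNA quality in the ID, Tcf4 and Twist2 differences was not tested.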

How the data were processed

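RNA of the 12 samples was measured by QuantSeq 3' tag sequencing with single reads of 75 bases, per the labels' protocols, which mention optional molecular identifiers. The aligner, the counter and any use of the identifiers were not stated there. Reads were placed on GRCm38, as the submitters' processing notes name it. The values deposited by the authors are a signal normalised to depth, with every column summing to 10000000. One read was worth 1.92 to 3.75 units, and all values (100%) were whole reads within 0.01 read. Gene IDs were matched to GENCODE symbols for 23002 of 23106 genes. Values were tested as log2(value + 1) with limma 3.58.1 (trend) in R 4.3.3, over 12676 genes with a mean of at least 10 and all 12 libraries in 1 fit, with Benjamini-Hochberg adjustment over all genes and a threshold of 0.05. Alternatives were other pseudocounts, filters and scalings, edgeR 4.0.16 and DESeq2 1.42.0 on recovered reads, a replicate block, fits of 2 groups and the omission of each library. Depth limits Id4, where 3 reads are 5.77 to 11.2 units. Intervals cover the spread between libraries. The limma fit was tested on simulated data in which few genes changed, all at a single dispersion, and no library stood apart. That test does not cover the many changed genes or the outlying library seen here. Named genes are the 9 members, up to 2 called genes per list, comparison and direction with a mean of at least 20, and the 3 nearest profiles per member. Members and lists were chosen with earlier results of these data known. The nearest profiles and the family sums carry no test.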

Additional observations from a re-analysis of the deposited data

Results flagged for a closer look

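The check covered the 9 genes, the ID sum, the E-protein sum and their ratio in each of the 3 groups. Of these 36 sets of 4 libraries, 2 held a library farther from the rest than the 95% critical value of Dixon's test allows. Chance gives such a library in about 1 in 20 sets, and the sums and the ratio are not independent of the genes. Twist2 in Prkcz-/- sgScr replicate 1 was 1046.84 normalised reads, with a gap to the nearest library of 0.940 of the group's range, and the other libraries of the group lay between 942 and 948. Tcf12 in WT sgScr replicate 3 was 2415.27 normalised reads, with a gap of 0.884 of the range, and the others lay between 2129.9 and 2163.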

How the results depend on the processing

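The number of members called ranged from 6 to 9 for Prkcz-/- sgScr against WT sgScr, 7 to 9 for the Sox2 guide against sgScr and 6 to 7 for Prkcz-/- sgSox2 against WT sgScr over 24 alternatives each, and over all genes from 7138 to 9469, 6464 to 8394 and 5787 to 6793. Id1, Id2, Id3 and Tcf4 passed in all 72 of their alternatives, and Id4 in 69 of 69, since it was not tested with a minimum mean of 50. Uncalled differences of Prkcz-/- sgSox2 from WT sgScr changed sign: Twist2 was -0.0489 with TMM scaling, -0.0765 with DESeq2 size factors, -0.0445 by edgeR, -0.0698 by DESeq2 and from -0.0397 (without replicate 1 of Prkcz-/- sgSox2) to 0.0831 (without its replicate 4) when libraries were left out, and Tcf3 was -0.0138, -0.0414, -0.0104 (quantile scaling), -0.0095 (edgeR) and -0.0358 (DESeq2). The cause was not tested. Scaling shifted the median of all genes by over 0.1 only with quantile scaling in the first comparison (-0.17) and DESeq2 size factors in the last (-0.11). The replicate numbers do not pair the libraries: correlations of same-numbered libraries ranged from -0.10 to 0.30, with 2 of 12 over 0.1, and 3 of 12 libraries correlated best with their own number. With the replicate block 8508, 7693 and 6627 genes were called, and Twist1 in the comparison of guides passed (adjusted p = 0.048, limma). The cell cycle list had 2 calls in that comparison, 4 with quantile scaling or without replicate 1 of Prkcz-/- sgSox2 and 5 without replicate 4 of Prkcz-/- sgScr. The ratio of summed ID to E-protein tags was recomputed without each library after the data were seen. Depth limits Id4 and Hand2.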
